A study of Danio rerio with 16 samples.

Results

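Among the genes measured in zebrafish testis, 169 of 32520 had far lower mean levels in triploid than in diploid fish and do not belong to the pimr kinase family or to a few other symbols left aside. They were chosen by measured values. The rule asked for a mean of at least 2 CPM (a gene's counts per 1000000 counted read pairs of the library) in diploid controls, a triploid control mean of at most 1/5 of that, and a triploid mean under 17α-ethinylestradiol (EE2) of at most 1/2 of the diploid EE2 mean. Symbols starting with pimr or klhl10, and tssk6, nkd3l and amh, were left out, which removed 70 of the 239 genes that passed the thresholds, 66 of them pimr genes. Since both ploidy contrasts picked the members, the ploidy differences below are a description and carry no test.

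RNA came from testes of AB strain fish in 4 groups of 4 libraries each: diploid controls, diploids given EE2, triploid controls and triploids given EE2. EE2 is a synthetic estrogen. No transgene or mutant allele is given for any group, and the dose, the length of exposure, the age of the fish and the number of fish behind a library are not given in the sources used here. Nothing says whether the replicates came from separate fish, so p-values measure the spread between these libraries, which may be technical. Library totals ran from 7052508 to 17369549 read pairs, so that 1 read pair was worth between 0.0576 and 0.142 CPM. Triploid EE2 replicate 2 is titled an outlier by the submitters. It was used neither by the rule nor in the tests. All 13 matched germ cell markers and all 15 meiosis markers were detected, and the summed CPM of the meiosis list ran from 4310 to 5659 in diploid controls and from 6062 to 6284 in triploid controls. Sertoli cell markers (9 of 13 matched) summed to between 848 and 1597 CPM in diploid controls and to between 492.5 and 679 CPM in triploid controls, with no overlap. In diploid controls the largest part of that sum was amh, a gene the rule left out, with means of 692 and 159 CPM in diploid and triploid controls. For gsdf, at 361 and 230 CPM, the libraries overlapped, and wt1b and the INHBB genes had higher means in triploid controls. The sums without amh were not compared. The part of cell makeup in the members' levels was not tested. Diploid control replicate 1 stood apart in that the RNA gene rn7sl1 took 13.3% of its counts, against 4.71% to 7.77% elsewhere, and its TMM factor was 0.773.

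Triploid zebrafish carry an additional chromosome set and are known to develop as sterile males. In a testis, germ cells pass from spermatogonia through meiosis to sperm, held and supplied by Sertoli cells, while Leydig cells make androgens. Most of the genes described here have only the name of the genomic clone they were found in, and what they do is not annotated in the sources used here. In whole tissue, fewer cells of a type and less RNA per cell cannot be told apart.

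The 169 members fell into 2 sets that differ in how their reads were spread over the 4 diploid controls. In 39 members, a single diploid control held between 86.4% and 98.4% of the summed CPM of the group. In the other 130 members no library held more than 65.7%, and the median was 33.7%. The limit of 80% used to separate them was set after the values were seen, and no member lay between 65.7% and 86.4%. Most of the 39 are genes of digestive enzymes, and they are called the digestive genes below. For them the low triploid mean was not a difference shared by the diploid libraries.

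**Figure D1:**
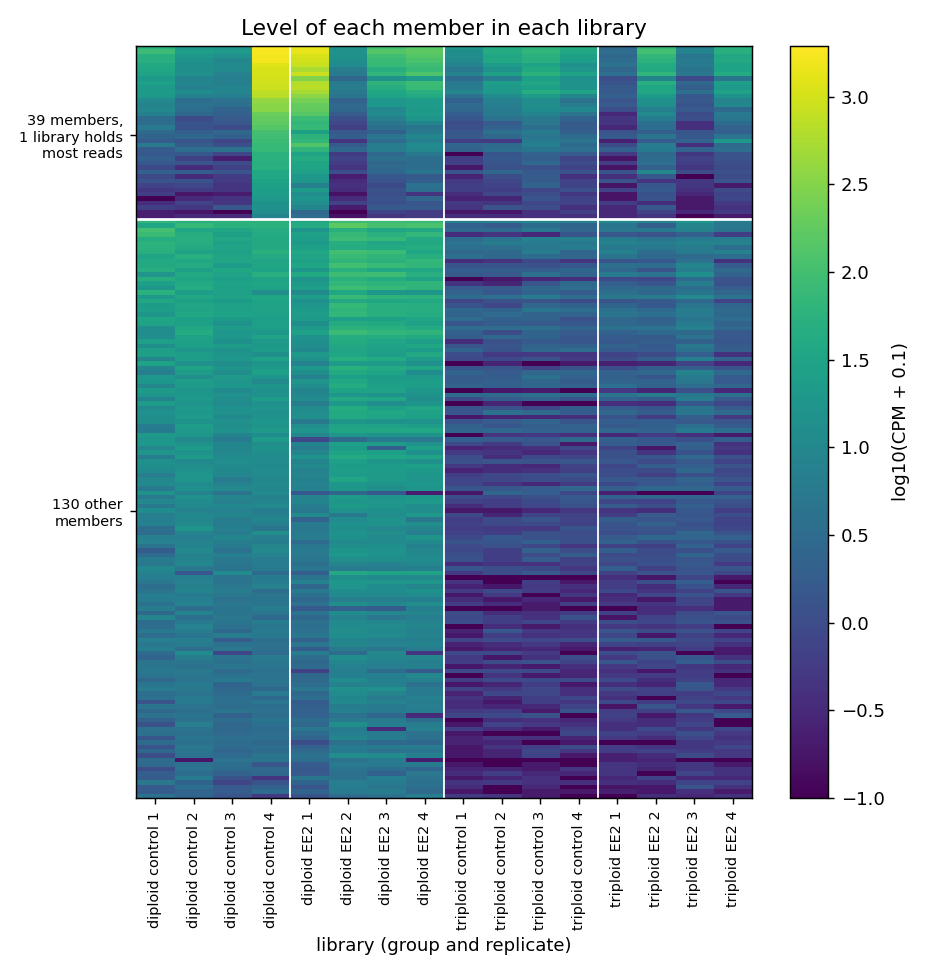
Level of the 169 members (rows) in the 16 libraries (columns), as log10(CPM + 0.1). The 39 members above the line are brightest in diploid control replicate 4 and diploid EE2 replicate 1. Most of the 130 below it are brighter in the 8 diploid than in the 8 triploid libraries, and some have single diploid libraries at triploid levels.

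The acinar cells of the exocrine pancreas make proteases, lipases, amylase and nucleases for the gut, and many of the 39 genes encode such secreted proteins. They include the trypsin genes prss1, prss59.1 and prss59.2, chymotrypsin genes (ctrb.1, ctrb.2, ctrb.3 and ctrl), elastase genes (CELA1, cela1.2 to cela1.5, ela2l and ela3l), carboxypeptidases (CPA1 and CPB1), the bile-salt-activated lipase gene CEL, amylases (amy2a and amy2al2), the phospholipase PLA2G1B, DNASE1, the zymogen granule proteins sycn.1 and SYCN, the pancreatic disulfide isomerase pdia2 and the trypsin inhibitor spink4. In 38 of the 39, diploid control replicate 4 was the highest of all 16 libraries and diploid EE2 replicate 1 the second highest. The exception was sycn.1, with these 2 libraries in the reverse order. Among all 19184 genes with a diploid control mean of at least 2 CPM, diploid control replicate 4 was the highest for 645. In 95 of these, with the 38 among them, diploid EE2 replicate 1 was also the second highest.

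The level of prss1, a trypsinogen, was 49.9, 16.1, 9.54 and 1629 CPM in the 4 diploid controls and 10.8, 37.4, 50.3 and 25.6 CPM in the 4 triploid controls. Under EE2 it was 1005, 13.5, 79.4 and 113.1 CPM in diploids and 3.25, 56.9, 6.09 and 39.2 CPM in triploids, the second of these being the library not used. One library in each diploid group stood above 1000 CPM, and leaving these aside the diploid and triploid libraries overlapped. The pancreatic amylase gene amy2a had 29.0, 14.3, 7.95 and 1080 CPM in diploid controls and 8.17, 27.2, 57.7 and 29.5 CPM in triploid controls. Triploid control replicate 3 was thus above diploid control replicates 1 to 3 for amy2a. CPB1, a carboxypeptidase, had 39.8, 13.7, 11.4 and 1182 CPM in diploid controls and 7.83, 23.6, 29.9 and 14.4 CPM in triploid controls. Its ranges overlapped in the same way, and again diploid control replicate 4 alone set the diploid mean of 312 CPM.

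The remaining members among the 10 with the highest diploid control CPM had the same shape. In diploid control replicate 4, prss59.1 stood at 1947, CELA1 (ENSDARG00000017314) at 1768, prss59.2 at 1645, CEL (ENSDARG00000029822) at 1072, CEL (ENSDARG00000017490) at 1017, ctrb.1 at 963 and ela3l at 910 CPM. In the other 3 diploid controls none of these 7 genes was above 86.7 CPM. In triploid controls their highest values ran from 25.9 CPM for the second CEL gene to 65.3 CPM for CELA1 (ENSDARG00000017314).

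Of the 39, 0 had all 4 diploid controls above all 4 triploid controls. Over all genes at 2 CPM or more in diploid controls this held for 988, which is 5.15%. In 21 of the 39 the median of the triploid controls was above the median of the diploid controls. Their summed level was 526, 201, 164 and 17280 CPM in diploid controls and 131, 361, 618 and 338 CPM in triploid controls. Under EE2 it was 11300, 131.8, 919 and 1338 CPM in diploids and 45.0, 68.7 and 455 CPM in the triploid libraries used. Without diploid control replicate 4, the rule would have found 0 of the 39. Without diploid EE2 replicate 1 it would have found 35. The 39 were set apart because 1 diploid control held most of their CPM. The counts that rest on diploid controls are therefore largely fixed by that choice.

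Of the 10 exocrine pancreas markers listed, 6 were matched by symbol and 5 of these were members. The sixth, the elastase gene ela2, had a triploid control mean of 30.3 CPM against 110 CPM in diploid controls, and 351 CPM in diploid control replicate 4. Liver markers (11 of 12 matched) summed to 311 CPM in diploid control replicate 4 and to between 43.5 and 70.0 CPM in the other diploid controls. In diploid EE2 libraries the liver sum was 212, 64.5, 363 and 40.9 CPM, so that replicate 3 and not replicate 1 was the highest. In triploid controls it ran from 99.0 to 282 CPM, and in triploid EE2 replicates 2 and 4 it was 490.9 and 491 CPM. The part of other tissue in these levels was not tested.

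**Figure D2:**
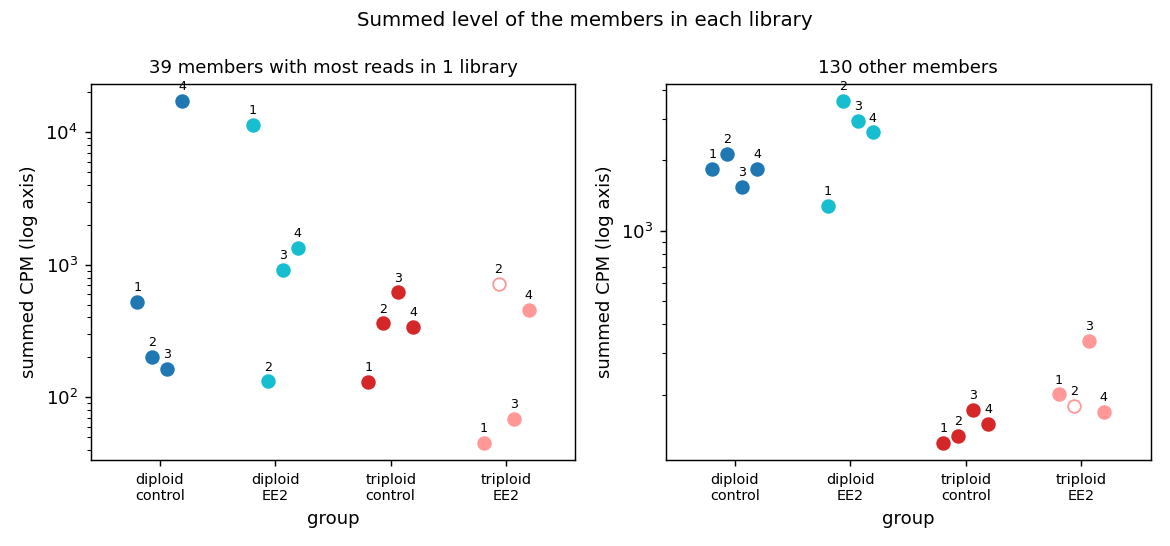
Summed CPM of the 39 members with most reads in 1 library (left) and of the 130 others (right) in each library; log axes, numbers are replicates, and the open circle is triploid EE2 replicate 2, which the rule did not use. On the left 2 diploid libraries stand at 17280 and 11300 CPM. Diploid EE2 replicates 3 and 4, at 919 and 1338 CPM, are also above every triploid library, and the other diploid libraries mix with the triploid ones. On the right every diploid library is above every triploid library.

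For the 130 other members the median level was 8.85 CPM in diploid controls and 0.670 CPM in triploid controls, and the median ratio of triploid to diploid was 8.06%. Under EE2 the median ratio was 8.91%. In 126 of them the 4 diploid controls were all above the 4 triploid controls (5.15% of all genes at 2 CPM or more in diploid controls), and in 116 all 8 diploid libraries were above all 7 triploid libraries used (1.79% of those genes). The rule used these contrasts, so nothing is read from those counts. The summed level of the 130 was 1843, 2131, 1544 and 1834 CPM in diploid controls and 124, 133, 172 and 150 CPM in triploid controls.

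The 5 members with the lowest triploid share among those of at least 5 CPM in diploid controls were detected in triploid controls by a few read pairs at most. The gene si:dkey-234d14.2 had 6.66, 6.99, 4.43 and 5.73 CPM in diploid controls and no read pair in any triploid control. Its 257 diploid read pairs, set against a floor of 3 counts over the triploid control group, put diploids at least 86.2-fold higher. In the triploid EE2 libraries used it had 0.283, 0.698 and 0.106 CPM, so it was not at 0 in all triploids. A second gene without a triploid control read pair, si:ch211-14p21.3, was at least 41.3-fold higher in diploids by the same floor. These floors cover counting error only.

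The clone-named gene si:dkeyp-87a6.2 had 46.6, 32.4, 25.5 and 30.0 CPM in diploid controls and 0, 0.0887, 0.209 and 0.280 CPM in triploid controls. Diploid and triploid libraries did not overlap. Under EE2 the triploid libraries used stood at 0.777, 3.09 and 1.17 CPM, all above the triploid controls, and the diploid libraries at 15.9, 54.0, 43.4 and 29.8 CPM. As the gene was named for its low triploid controls, nothing is read from that order. The gene si:ch211-199m3.1 had 22.6, 16.4, 11.47 and 14.5 CPM in diploid controls and a level above 0 in 1 triploid control, 0.178 CPM in replicate 2. The 2 unnamed genes ENSDARG00000116503 and ENSDARG00000114981 had means of 19.2 and 16.7 CPM in diploid controls and at most 0.178 and 0.105 CPM in any triploid control.

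The next 4 genes had the highest diploid control CPM among the 130 and were chosen after their values were seen. The level of the clone-named gene ENSDARG00000095735 was 65.8, 49.5, 53.9 and 55.9 CPM in diploid controls and 7.48, 8.34, 9.31 and 7.85 CPM in triploid controls. The level of si:dkey-248f6.3 was 33.6, 75.7, 55.1 and 53.8 CPM in diploid controls and 2.15, 1.60, 3.14 and 2.34 CPM in triploid controls. Both had diploid and triploid ranges far apart, with the triploid controls close to each other. In si:rp71-1d10.7 the diploid controls spread from 33.4 to 101 CPM and the triploid controls from 2.52 to 5.34 CPM. For si:dkey-249p7.4 the diploid controls ran from 27.6 to 85.1 CPM and the triploid controls from 0.209 to 1.31 CPM.

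Members with a gene symbol that points to a function were few: 7 of the 130 had a symbol not taken from a clone. They were 2 nkd3 genes, 3 nampt genes and 2 U1 genes. Clone-based symbols, starting with si: or zgc:, made up 77.7% of the 130 and 13.5% of all genes at 2 CPM or more in diploid controls, and genes with no symbol 16.9% and 5.31%. In RefSeq (assembly GRCz12tu), 27 of the 130 had an entry of the same symbol or synonym on the same chromosome, of which 25 were protein-coding and 2 long noncoding. The median exon length of the 130 was 1166 bases, against 2443 bases over all genes at 2 CPM or more.

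Nampt is the enzyme that recycles nicotinamide in the making of NAD. Zebrafish hold several nampt genes, and 6 were annotated. NAMPT (ENSDARG00000076694, on chromosome 18) had 31.5, 51.0, 31.8 and 41.4 CPM in diploid controls and 3.61, 2.57, 3.14 and 2.52 CPM in triploid controls. Its diploid and triploid ranges were apart. The neighbouring members nampt4.1 and nampt4.2 on chromosome 11 had means of 3.22 ± 1.63 and 4.19 ± 1.32 CPM (SD, n = 4) in diploid controls and 0.451 ± 0.316 and 0.748 ± 0.156 CPM (SD, n = 4) in triploid controls.

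The other nampt genes did not share that pattern evenly. NAMPT (ENSDARG00000030598) on chromosome 4 had 35.0 ± 2.85 CPM in diploid and 29.3 ± 1.23 CPM in triploid controls, and nampt2 on chromosome 11 had 35.6 ± 9.14 and 46.1 ± 5.53 CPM (SD, n = 4 each). The gene nampt3.2, with 18.2 ± 4.68 and 4.34 ± 0.573 CPM, lay just outside the rule. Its annotated span, chr18:33779440-33796526 in GRCz11, encloses that of the member NAMPT, chr18:33788340-33795749, so reads in shared exons could have been left out of both.

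The nkd genes encode naked cuticle proteins, which bind Dishevelled and dampen Wnt signalling. The member nkd3 (ENSDARG00000086218) had 5.22, 10.4, 9.88 and 11.1 CPM in diploid controls and 0.258, 0.532, 0.733 and 1.12 CPM in triploid controls. The member nkd3 (ENSDARG00000096278) had 4.31, 4.66, 4.09 and 5.09 CPM in diploid controls and 0.516, 0.887, 1.15 and 0.654 CPM in triploid controls. Diploid and triploid ranges were apart for both. They lie 1 after the other on chromosome 19, at chr19:43995936-43998061 and chr19:44004348-44006445 in GRCz11. The next nkd3 gene on that chromosome, ENSDARG00000013174 at chr19:44009473-44036792, had 8.01 ± 0.961 CPM in diploid and 7.51 ± 0.966 CPM in triploid controls (SD, n = 4 each). NKD1 had 17.4 ± 3.55 and 16.2 ± 2.65 CPM, so the difference lay in single copies and not in all annotated genes of the family. The left-out gene nkd3l stood at 18.4 CPM in diploid and 0.718 CPM in triploid controls.

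**Figure D3:**
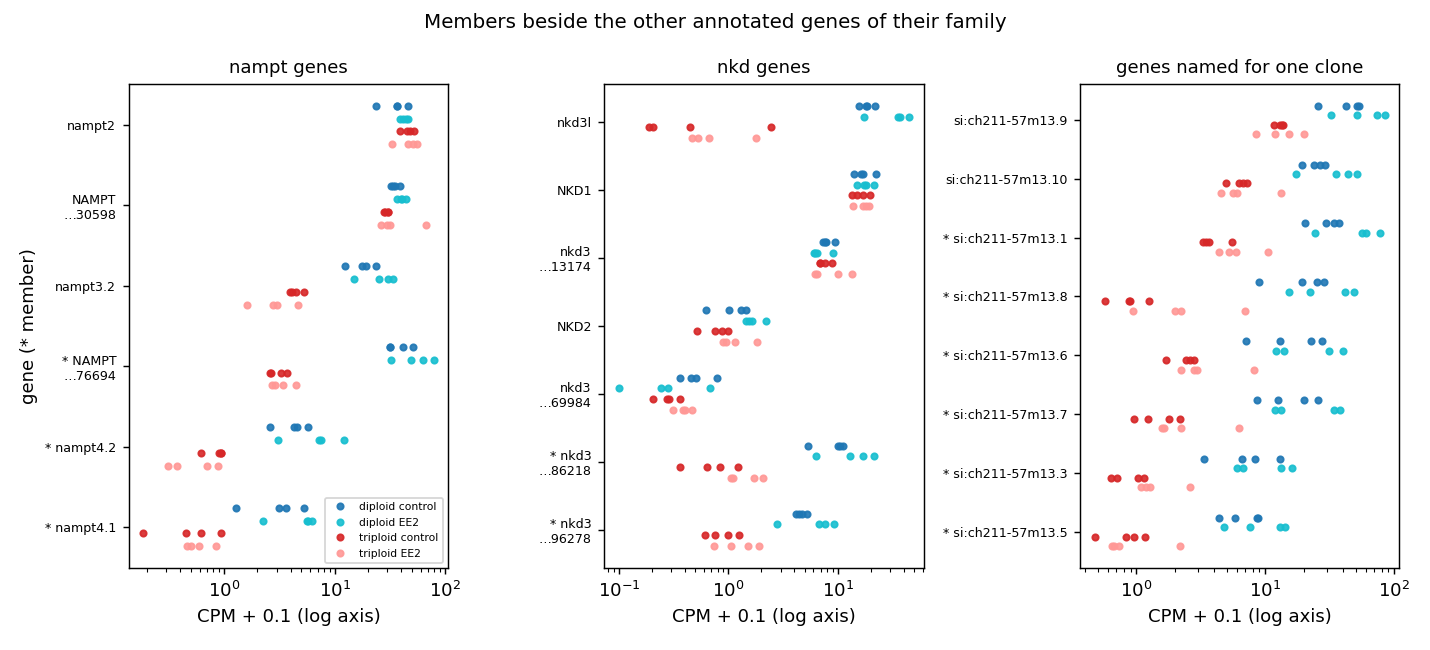
Levels in each of the 16 libraries (points, CPM + 0.1 on log axes) of all annotated nampt genes, nkd genes and genes named for the clone si:ch211-57m13; members carry an asterisk, and shortened labels show the last 5 digits of the Ensembl identifier. The members' triploid control points lie to the left of the diploid points, with 1 triploid EE2 point of si:ch211-57m13.6 (8.08 CPM) above its lowest diploid point (6.92 CPM), while those of nampt2, NKD1 and nkd3 ENSDARG00000013174 overlap the diploid ones; nkd3l was left out by name.

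U1 is the small nuclear RNA of the spliceosome that recognises 5′ splice sites, and zebrafish carry many near-identical copies of it, so the counts of any single copy are uncertain. U1 (ENSDARG00000110859, chromosome 9) had 17.8, 10.6, 5.79 and 22.7 CPM in diploid controls and 1.81, 1.60, 1.36 and 2.99 CPM in triploid controls. U1 (ENSDARG00000114193, on an unplaced scaffold) had 15.7, 8.27, 4.203 and 10.2 CPM in diploid controls and 0.0860, 2.66, 1.78 and 0.747 CPM in triploid controls. In controls the ploidies did not overlap for either copy. Under EE2 the diploid values of the first were 0.709, 2.99, 5.87 and 5.19 CPM and reached into the range of the triploids.

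The 169 members were spread over all 25 chromosomes, and some lay beside each other. On chromosome 4 lay only members of the set of 39, all with clone-based symbols. With no more than 5 other annotated genes between neighbours, 95 of the 169 fell into 35 runs, 28 of the 39 digestive genes and 67 of the 130 others. No share over all genes is set beside these run counts, so nothing is read from them. Of the 130, chromosome 2 held 18, or 13.8%, against 4.74% of all genes at 2 CPM or more in diploid controls. Chromosomes 16 and 20 held 13 each, or 10.0%, against 4.31% and 4.33%. These shares count neighbouring members of a run as separate genes, such as the 5 of the longest run on chromosome 2. Nothing is therefore read from them about whole chromosomes.

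One of the 2 longest runs, with 6 members, was chr10:6613279-6702812 (GRCz11, all on the plus strand) and held si:ch211-57m13.1, si:ch211-57m13.3, si:ch211-57m13.5, si:ch211-57m13.6, si:ch211-57m13.7 and si:ch211-57m13.8. Their diploid control means ran from 6.81 to 30.3 CPM and their triploid control means from 0.758 to 3.88 CPM. For si:ch211-57m13.8 the diploid controls were at 8.75, 25.1, 18.97 and 28.2 CPM and the triploid controls at 0.774, 0.799, 1.15 and 0.467 CPM. Diploid and triploid controls did not overlap in it. Beyond the end of the run, si:ch211-57m13.9 had 43.0 CPM in diploid and 12.9 CPM in triploid controls and si:ch211-57m13.10 had 24.6 and 6.16 CPM, both lower in triploids but above the limit of 1/5. The unnamed gene ENSDARG00000074072 inside the run had 7.10 CPM in diploid and 7.13 CPM in triploid controls.

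The other run of 6 lay at chr22:7439186-7508894 and held the elastase genes CELA1 (ENSDARG00000017314 and ENSDARG00000043175) and cela1.2 to cela1.5, all of the digestive set. A run of 5 at chr2:33692165-33753382 held si:dkey-31m5.2, si:dkey-31m5.3, si:dkey-31m5.4, si:dkey-31m5.6 and si:dkey-31m5.7. Their diploid control means ran from 2.21 to 22.5 CPM and their triploid control means from 0.0710 to 1.05 CPM. The sixth annotated gene of that clone, si:dkey-31m5.5, had 1.87 CPM in diploid and 0.279 CPM in triploid controls and missed only the minimum of 2 CPM. Runs of 4 members each lay on chromosomes 6, 16 and 20.

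Although pimr genes were left out, some members lay next to them. Of the 130, 6 had a pimr gene as a direct neighbour in gene order, or 4.62%, against 0.423% of the other genes at 2 CPM or more, and 11 had one within 5 genes, or 8.46% against 1.93%. These shares count members of a run as separate genes, such as si:cabz01021067.1 and ENSDARG00000115884 on chromosome 11. Nothing is therefore read from them. None of the 39 digestive genes had a pimr gene within 5 genes. With a share of only 1.93% over the other genes, nothing is read from that either. The direct neighbours included si:dkey-278k10.5 on chromosome 16, with 20.98 CPM in diploid and 2.39 CPM in triploid controls, and ENSDARG00000026569 on chromosome 2, with 12.4 and 1.18 CPM. Of the 130, 17 overlapped another annotated gene on the same strand, or 13.1%, against 11.4% of all genes at 2 CPM or more, and their counts are uncertain.

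Some members were also nearly absent from single diploid libraries, a feature looked for after the values were seen. A diploid EE2 library at no more than 1/5 of its group's median was found in 8 of the 130, or 6.15%, against 1.14% of all genes at 2 CPM or more in diploid controls. A diploid control library that low was found in 1 of the 130, or 0.769%, against 1.15%. The gene si:ch211-14p21.3 on chromosome 2 had 3.13, 0.0803, 4.203 and 4.37 CPM in diploid controls and 3.40, 3.96, 5.58 and 0.121 CPM under EE2. Diploid control replicate 2 and diploid EE2 replicate 4, with 1 read pair each, were thus in the range of the triploids, where 0.181 CPM was the highest value.

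The gene si:ch211-221n20.7 on chromosome 20 had 4.96, 5.48, 0.230 and 7.36 CPM in diploid EE2 libraries, and its diploid controls ran from 2.61 to 4.18 CPM. The third EE2 library alone lay in the triploid range. The gene si:ch211-272b8.7 on chromosome 15 had 1.84, 38.8, 30.5 and 29.2 CPM in diploid EE2 libraries and 7.57, 1.37, 12.3 and 3.08 CPM in diploid controls, so that both diploid groups held low libraries. ENSDARG00000068742 on chromosome 5 had 6.24, 21.5, 1.96 and 26.4 CPM under EE2 in diploids. Which library was low differed from gene to gene: replicates 1, 3 and 4 of the diploid EE2 group each were the low one for at least 2 of the 8 genes.

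**Figure D4:**
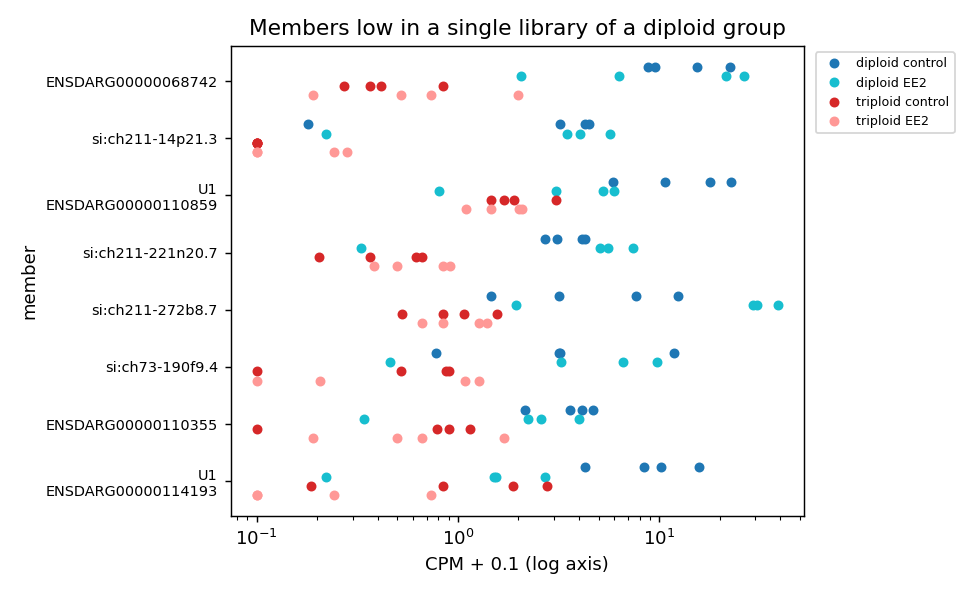
Levels (CPM + 0.1, log axis) of the 8 members, of the 130, in which 1 library of a diploid group was at most 1/5 of the group's median; each point is a library. In si:ch211-14p21.3 and si:ch211-221n20.7 the low diploid libraries, at 0.0803, 0.121 and 0.230 CPM, lie among the triploid points. So do those of si:ch73-190f9.4 (0.362 CPM), ENSDARG00000110355 (0.241 CPM) and U1 ENSDARG00000114193 (0.121 CPM). The low library of U1 ENSDARG00000110859, at 0.709 CPM, lies below its triploid points.

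Triploid EE2 replicate 2 had no part in the choice of members, but the diploid values it is set against did, so the shares below are partly fixed by that choice. All 130 had at most 1/2 of the diploid EE2 mean in it (against 3.7% of all genes at 2 CPM or more in diploid controls), and 119 at most 1/5 of the diploid control mean (91.5% against 1.64%). In 125 of the 130, or 96.2%, it was below all 8 diploid libraries, against 9.82% of those genes. The median of the 130 in this library was 9.51% of the diploid control mean, and their summed level was 178.5 CPM, between those of triploid EE2 replicates 4 and 1, at 169 and 200 CPM. In the same library the meiosis markers summed to 3191 CPM, against 4934 to 6166 CPM in the triploid EE2 libraries used, and the spermatid and sperm markers to 1430 CPM, against 2289 to 2396 CPM. Its macrophage and neutrophil markers (6 of 10 matched) summed to 703 CPM, against 256 CPM in diploid EE2 replicate 1 and 61.3 to 111 CPM in the remaining 14 libraries. Their part in the result was not tested.

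Over all 169 members, 167 were at most 1/2 of the diploid EE2 mean in that library and 147 at most 1/5 of the diploid control mean. For the 39 digestive genes the counts were 37 and 28, but the level in this library was above the median of the diploid controls in 34 of the 39. Without diploid control replicate 4 in the mean, 118 of the 169 were at most 1/5 of it. The summed level of the 39 in triploid EE2 replicate 2 was 715 CPM, above diploid control replicates 1 to 3.

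The response to EE2 within each ploidy was not the contrast used by the rule, although it comes from the same libraries. The rule held triploids to 1/5 of diploids in controls but only to 1/2 under EE2. Counts of members higher or lower under EE2 are therefore not independent of the choice of members. No member was called changed by EE2 in either ploidy at an adjusted p under 0.05 (edgeR's quasi-likelihood test with Benjamini-Hochberg adjustment over 23007 genes). In diploids 1.94% of the genes tested were called higher and 0.422% lower, and in triploids 0.0609% and 0.0435%. At an unadjusted p under 0.05 by edgeR, 33 members were higher and 2 lower in diploids, where 9.79% and 7.12% of all genes tested were. In triploids 20 were higher and 0 lower, against 3.16% and 2.26% of all genes. DESeq2 called 1 member higher and 2 lower in diploids, against 3.88% and 1.39% of all genes with an adjusted p. In triploids it called 4 higher and 0 lower, against 0.286% and 0.168%. The filter on low counts left 167 of the 169 members, all 130 among them.

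The 130 had a median log2 change under EE2 of 0.53 in diploids, with 109 of 130 above 0, and of 0.71 in triploids, with 116 of 130 above 0. Over all genes tested the medians were -0.014 and 0.005. The rule set limits on the levels in all 4 groups, with a wider one under EE2 than in controls, so these medians are not independent of the choice of members. In diploids the median was 0.32 without diploid EE2 replicate 2, and in triploids 0.40 without triploid EE2 replicate 3.

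Diploid EE2 replicate 1 stood apart from its group for the 130 members. Their summed level was 1278 CPM in that library and 3598, 2953 and 2637 CPM in replicates 2 to 4, against 1544 to 2131 CPM in diploid controls. With it the groups overlapped and without it they did not. Without that library 5 members were called higher in diploids by edgeR's quasi-likelihood test, namely si:ch211-202m22.1, si:ch211-262h13.4, si:ch211-272b8.7, si:dkey-155d18.1 and si:dkey-248f6.3, with adjusted p from 0.025 to 0.048, where 1.3% of all genes tested were called higher. The median of the 130 was then 0.76. In the same library the spermatid and sperm markers (13 of 22 matched) summed to 1238 CPM, where the rest of the group had 2156 to 2323 CPM. The erythrocyte markers (5 of 8 matched) summed to 672 CPM there and to 31.9 to 45.0 CPM in the rest of the group. Their part in the result was not tested.

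In triploids the summed level of the 130 was 200, 339 and 169 CPM in the EE2 libraries used and 124 to 172 CPM in controls. Replicate 3 was the highest of all triploid libraries, and replicate 4 lay within the control range. For si:dkeyp-87a6.2, the member with the smallest p in triploids, the log2 change was 3.42 ± 0.90 (SE) with an adjusted p of 0.39 by edgeR's quasi-likelihood test and 0.0025 by DESeq2. It had 0, 1, 2 and 3 read pairs in triploid controls and was among the members named for the lowest triploid share there. Its rise under EE2 is therefore not independent of how it was picked.

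The 3 members with the smallest p in diploids, chosen after their values were seen, were the 2 U1 genes and si:ch211-202m22.1. U1 (ENSDARG00000110859) had a log2 change of -2.02 ± 0.51 (SE) with an adjusted p of 0.056, and U1 (ENSDARG00000114193) one of -2.81 ± 0.76 with 0.071, by edgeR's quasi-likelihood test. They were the only members that DESeq2 called lower, with adjusted p of 0.0043 and 0.011. The level of si:ch211-202m22.1 was 12.5, 43.1, 17.95 and 19.4 CPM in diploid controls and 28.4, 82.7, 66.7 and 61.7 CPM under EE2, where only diploid control replicate 2 overlapped the EE2 range. Its log2 change was 1.34 ± 0.36 (SE) with an adjusted p of 0.071 by edgeR's quasi-likelihood test and 0.015 by DESeq2. By edgeR it was called without diploid control replicate 2, with an adjusted p of 0.022. In that fit 0.941% of all genes were called higher. The first U1 gene was called without diploid control replicate 3, at 0.031, and the second without triploid control replicate 1, at 0.05, where 0.256% and 0.402% of all genes were called lower.

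**Figure D5:**
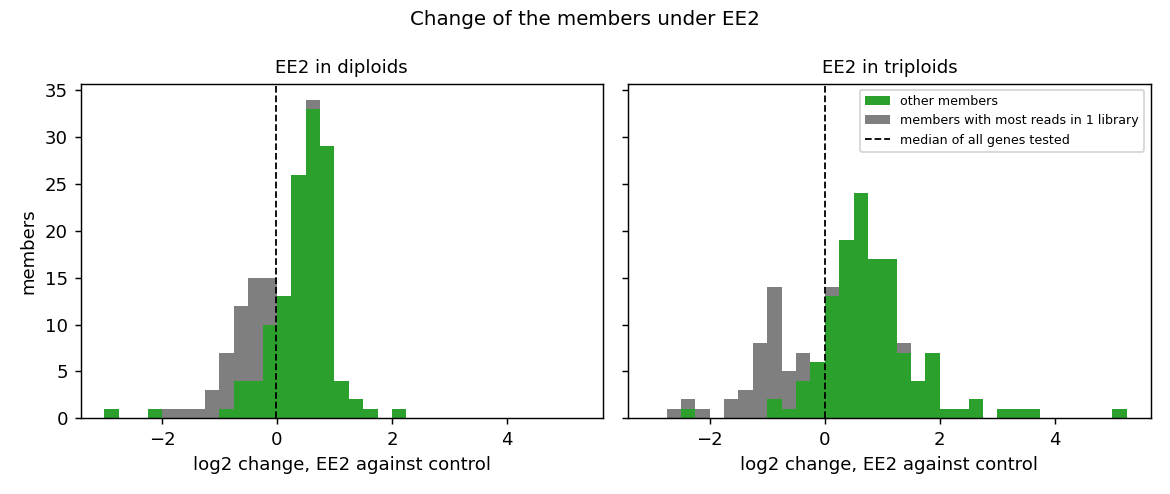
Number of members by log2 change under EE2 (edgeR, bins of 0.25) in diploids (left) and triploids (right), with the 130 members in green and the digestive genes that passed the filter stacked on them in grey; the dashed line is the median of all genes tested. The 130 centre at 0.53 and 0.71, while no single member passed the adjusted threshold.

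The digestive genes had a median log2 change of -0.54 in diploids and -0.98 in triploids over the 37 tested, and none reached an unadjusted p under 0.05 in either ploidy. In diploids that median turned to 3.30 without diploid control replicate 4, and it lay between -2.54, without diploid EE2 replicate 1, and -0.15, without diploid EE2 replicate 2, when any other library was left out. In triploids it ran from -2.19 without triploid EE2 replicate 4 to -0.52 without triploid EE2 replicate 1, and was -0.21 with replicate 2 included.

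The genes nearest the limits of 1/5 and 1/2 are given here. Genes also lay near the minimum of 2 CPM. One was si:ch211-122l14.5, with 1.999 CPM in diploid and 0.162 CPM in triploid controls, which missed only that minimum. The members nearest inside the limit of 1/5 in controls were ENSDARG00000117596 at 19.6%, ENSDARG00000078938 at 19.02% and sycn.1 at 18.1%, and those just outside were si:dkeyp-93h6.1 at 20.3%, rasd2b at 20.4% and ENSDARG00000096702 at 20.5%. Of the 176 genes low in controls, the limit of 1/2 under EE2 removed 7. The members nearest inside it were U1 (ENSDARG00000110859) at 44.1%, ENSDARG00000110355 at 39.0% and si:dkey-14d8.6 at 35.3%, and those outside were ccl19a.2 at 87.0%, si:dkey-88j15.3 at 145% and si:dkey-3n22.9 at 192%.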

How the data were processed

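RNA of 16 testis libraries was measured by strand-specific sequencing after depletion of ribosomal RNA, per the labels' protocols. The deposited table held raw counts, whole read pairs per gene, made by the authors with featureCounts 2.0.6 on STAR alignments and the Ensembl 113 annotation of GRCz11, counted on the reverse strand, per the file headers and the submitters' processing notes. By default featureCounts leaves out reads with several alignments, which bears on genes with near copies. No source used here names the STAR version. Besides counts, the deposited table gave the exon length of each gene, another kind of value, used here for a median only.

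CPM was computed as the count over the library total, without further scaling, and errors beside it are SD over libraries. Symbols came from the reference given (29201 of 32520 genes); a symbol shared by genes is printed with its Ensembl identifier. EE2 was compared with control within each ploidy by edgeR 4.0.16 in R 4.3.3 (filterByExpr with the group, TMM, glmQLFit with robust estimation, 1 mean per group, 15 libraries without triploid EE2 replicate 2). P-values were adjusted over the 23007 genes tested by Benjamini-Hochberg and called at 0.05. SE is the log2 change over the square root of F. The fit was tested on simulated data of the diploid comparison, where over 23007 genes it recovered 63 of 100 genes changed 2-fold and 99 of 100 changed 4-fold, with 6 false calls. The changed genes were drawn above a minimum mean count, and all groups started from the same mean. Each gene's own quasi-likelihood spread was not simulated. The recovery therefore does not describe members with few reads or with most reads in 1 library. Replicate numbers are shared between groups, but their deviations correlated between -0.169 and 0.109, so they were not used as pairs.

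Named by rule were the 10 members with the highest diploid control CPM, the 5 with the lowest triploid share at 5 CPM or more, those nearest the limits, the 3 longest runs, families and members in marker lists. Further members named for their p-value, level or a low library were chosen after their values were seen. Members and lists were chosen with earlier results of these data known. Alternatives were DESeq2 1.42.0, its size factors, no filter, the outlier library included, each library left out, a replicate block, and other scalings and limits of the rule. Of the marker lists, those for ovarian somatic cells matched no symbol (0 of 4). The summed CPM of lists not given beside a result, over diploid and triploid controls, ran from 3116 to 4710 for germ cells and spermatogonia, 2095 to 2475 for spermatids and sperm, 946 to 2811 for Leydig cells, 197 to 312 for oocytes, 8.6 to 130 for skeletal muscle, 11.4 to 23.1 for erythrocytes, 61.3 to 83.5 for macrophages and neutrophils, 92.3 to 187 for lymphocytes and 110 to 175 for endothelium. Of these, the oocyte and lymphocyte sums did not overlap between the ploidies. Oocyte markers summed to 197 to 235 CPM in diploid and 274 to 312 CPM in triploid controls. Lymphocyte markers summed to 92.3 to 151.5 and 162 to 187 CPM. Within these lists the mean of CCNB1 was 134 and 223 CPM, and that of RAG2 107 and 152 CPM. Most other genes of both lists had lower means in triploid than in diploid controls, but zp2.1, zp3b, figla and ZAP70 had higher ones.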

Additional observations from a re-analysis of the deposited data

Results flagged for a closer look

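Of 120 group values checked, 29 had a library whose gap to its nearest neighbour took a larger share of the group's range than Dixon's 95% critical value; chance gives about 1 in 20 groups.

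Diploid control replicate 4 was far above its group for the summed level of the 39 digestive genes (gap of 0.979 of the range), and diploid EE2 replicate 1 was so in its own group (0.892). The same 2 libraries stood apart for each of the 10 digestive genes with the highest diploid control CPM. The 39 were chosen for 1 diploid control holding most of their CPM, so the gaps in diploid controls were fixed by that choice and are not to be set against chance. In diploid control replicate 4 the gap was 0.981 for prss59.1, 0.962 for CELA1 (ENSDARG00000017314), 0.979 for prss59.2, 0.975 for prss1, 0.976 for CPB1, 0.978 for CEL (ENSDARG00000029822), 0.98 for amy2a, 0.986 for CEL (ENSDARG00000017490), 0.978 for ctrb.1 and 0.986 for ela3l. In diploid EE2 replicate 1 it was 0.899 for prss59.1, 0.894 for CELA1 (ENSDARG00000017314), 0.882 for prss59.2, 0.9 for prss1, 0.905 for CPB1, 0.871 for CEL (ENSDARG00000029822), 0.867 for amy2a, 0.93 for CEL (ENSDARG00000017490), 0.868 for ctrb.1 and 0.899 for ela3l.

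Among the other members, 7 groups had a library apart. In triploid controls these were replicate 2 for si:ch211-199m3.1 (1.0), replicate 3 for si:rp71-1d10.7 (0.887), replicate 4 for si:dkey-249p7.4 (0.867) and replicate 3 for si:dkeyp-27c8.1 (ENSDARG00000092956, 0.896), all high. Triploid EE2 replicate 3 was high for ENSDARG00000116503 (0.845), diploid control replicate 1 was high for si:rp71-1d10.7 (0.833), and diploid EE2 replicate 1 was low for the clone-named gene ENSDARG00000095735 (0.877). Some of these gaps rest on few read pairs. In triploid controls si:ch211-199m3.1 had 0, 2, 0 and 0 and si:dkey-249p7.4 had 3, 4, 2 and 14. ENSDARG00000116503 had 2, 2, 6 and 2 in triploid EE2 libraries, the second being replicate 2, which the rule and the tests left out. Its gap was set against the critical value for 4 libraries, which holds only with replicate 2 counted in. Gaps that rest on few read pairs are not to be set against the chance rate above.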

How the results depend on the processing

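The rule found 169 genes and, with a limit of 1/10 in controls, 102. With TMM factors it found 176, with DESeq2 size factors 174, with a limit of 1/4 184, with a minimum of 1 CPM 192 and of 5 CPM 126. Leaving out single libraries gave 132 to 175, the 132 without diploid control replicate 4, and also 132 without both that library and diploid EE2 replicate 1, an alternative chosen after seeing the data. Scaled by TMM or size factors, triploid EE2 replicate 2 had 150 members at most 1/5 of the diploid control mean and 167 at most 1/2 of the diploid EE2 mean. Without diploid EE2 replicate 1 the latter was 133.

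DESeq2 called 1 member higher and 2 lower under EE2 in diploids and 4 higher in triploids, against 0 by edgeR; over all genes its shares were 3.88%, 1.39% and 0.286%. Leaving out single libraries gave 0 to 5 called higher in diploids, 0 to 1 lower and 0 in triploids in either direction. The replicate block gave 1 higher in diploids, si:dkey-30f11.2 (1.48% of all genes), and no other call; since same-numbered libraries did not deviate together (correlations of -0.0468, 0.109, -0.0124 and -0.0523 in diploids and -0.161, -0.169 and -0.112 in triploids), the numbers are taken as names only.

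In diploids the log2 changes of digestive genes turned positive under the replicate block, to 1.37 for prss59.1, 1.13 for CELA1 (ENSDARG00000017314), 1.17 for prss59.2, 1.1 for prss1, 1.09 for CPB1, 0.60 for CEL (ENSDARG00000029822), 1.31 for amy2a, 1.36 for ctrb.1 and 1.42 for ela3l; none of these values was a call. From the fit without diploid EE2 replicate 1 to that without diploid control replicate 4 they ran from -2.55 to 3.57 for prss59.1, -2.19 to 3.02 for CELA1 (ENSDARG00000017314), -2.39 to 3.34 for prss59.2, -2.66 to 3.33 for prss1, -2.41 to 3.33 for CPB1, -2.73 to 2.90 for CEL (ENSDARG00000029822), -4.31 to 2.58 for CEL (ENSDARG00000017490), -2.15 to 3.76 for amy2a, -2.32 to 3.5 for ctrb.1 and -2.48 to 3.89 for ela3l. The upper ends, without diploid control replicate 4, largely follow from how the 39 digestive genes were set apart. Leaving out single libraries, ENSDARG00000116503 ran from -0.434 to 0.221 and si:dkeyp-87a6.2 from -0.292 to 0.335. The latter, at 0.001, also fell to -0.000196 with DESeq2 size factors, -0.00555 without a filter, -0.0162 with triploid EE2 replicate 2 included, -0.127 under the replicate block and -0.0129 by DESeq2. Beyond these, the cause was not tested.

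Triploid control levels rest on few reads, a median of 29 read pairs over 4 libraries for the 130 members, so small differences among them were not detectable at this depth.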
